A study of Homo sapiens with 8 samples.

Results

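The genes described here are 38 genes of mitosis and the spindle checkpoint, taken as a named list of symbols and mapped to the Ensembl identifiers of the deposited gene tables. All 38 symbols mapped, out of 60675 genes in the tables, and all 38 were among the 19499 genes that passed the filter on low counts. Their values are given beside those of all tested genes.

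RNA was sequenced from the human embryonic stem cell (hESC) line H9, also called WA09, an established line, after 4 lengths of continuous culture. P1 hESCs had passage numbers in the 40s, P2 hESCs in the 100s, P3 hESCs in the 200s and P4 hESCs in the 300s, with 2 samples of each line and 8 in all. P1 and P2 samples are called early and P3 and P4 samples late. All were grown untreated and without feeder cells in mTeSR1 medium on Matrigel and were passaged with dispase, so that passage is the only factor the labels give. P3 and P4 hESCs differ from P1 and P2 hESCs both by time in culture and, per the study's description, by a gain at the chromosomal band 20q11.21, and these cannot be told apart. The lines are isogenic, each passage range is represented by 1 line, nothing states whether both samples of each line came from different cultures, and the p-values may therefore measure only technical spread between samples and, for P3 and P4 against P1 and P2, the spread between lines.

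In mitosis the cyclin B and CDK1 kinase drives entry, kinetochores built on centromeres attach chromosomes to spindle microtubules, and the spindle assembly checkpoint holds back the anaphase-promoting complex (APC/C) until every chromosome is attached. Once the checkpoint is satisfied, CDC20 activates the APC/C, which marks securin and cyclin B for destruction, and separase then cuts the cohesin that holds sister chromatids together. Transcripts of many of these proteins accumulate in G2 and mitosis, and pluripotent stem cells, which divide quickly with a short G1, express them at high levels. In bulk RNA, fewer cells in mitosis and less RNA per mitotic cell cannot be told apart.

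Many promoters of this gene class are known to carry a cell cycle genes homology region (CHR), bound by the DREAM and MuvB complexes, often near CCAAT boxes. The promoter windows of 5 members are printed, of which 4 rose in P3 and P4 hESCs (NDC80, CENPE, CCNB1 and CCNB2). The fifth, MKI67, did not pass the test, and its window held the CHR letters 2 times. The window of BUB1, which also rose, is not printed. Every printed window holds the CHR letters or their variant form, both given below. The windows of BUB1 and of SPC24, which did not pass the test, hold neither form. Each window runs from 250 bases before to 50 bases after the start listed in RefSeq on GRCh38.p14, written 5′ to 3′ on the strand of the gene. Capitals mark the CHR letters TTTGAA, searched on either strand and thus also printed as TTCAAA, and the variant form TTTAAA, which reads the same on both strands and differs from the CHR by 1 letter.
NDC80, plus strand, chr18:2571307-2571606: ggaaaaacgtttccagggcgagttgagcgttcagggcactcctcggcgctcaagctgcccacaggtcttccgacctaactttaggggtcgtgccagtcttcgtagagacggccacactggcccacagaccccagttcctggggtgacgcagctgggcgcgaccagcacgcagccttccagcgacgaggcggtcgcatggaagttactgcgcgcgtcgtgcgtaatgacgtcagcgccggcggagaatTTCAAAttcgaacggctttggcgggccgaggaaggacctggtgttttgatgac
CENPE, minus strand, chr4:103198294-103198593: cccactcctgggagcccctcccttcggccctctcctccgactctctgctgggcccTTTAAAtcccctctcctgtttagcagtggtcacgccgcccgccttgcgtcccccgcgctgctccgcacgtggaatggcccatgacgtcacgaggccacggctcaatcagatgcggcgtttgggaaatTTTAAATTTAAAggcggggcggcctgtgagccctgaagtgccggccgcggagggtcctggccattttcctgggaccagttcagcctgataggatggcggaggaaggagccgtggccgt
CCNB1, plus strand, chr5:69166900-69167199: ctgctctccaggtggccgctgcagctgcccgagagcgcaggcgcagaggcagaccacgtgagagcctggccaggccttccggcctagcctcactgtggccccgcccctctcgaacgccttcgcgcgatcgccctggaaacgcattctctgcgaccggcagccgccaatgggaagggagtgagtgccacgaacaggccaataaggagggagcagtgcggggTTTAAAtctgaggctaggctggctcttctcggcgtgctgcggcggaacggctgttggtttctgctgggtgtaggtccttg
CCNB2, plus strand, chr15:59104896-59105195: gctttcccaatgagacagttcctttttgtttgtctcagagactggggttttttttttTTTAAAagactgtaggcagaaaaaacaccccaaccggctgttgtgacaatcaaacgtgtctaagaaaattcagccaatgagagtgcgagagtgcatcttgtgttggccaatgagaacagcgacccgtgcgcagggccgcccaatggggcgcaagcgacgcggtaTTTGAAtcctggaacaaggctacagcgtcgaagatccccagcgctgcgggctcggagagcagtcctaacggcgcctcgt
MKI67, minus strand, chr10:128126374-128126673: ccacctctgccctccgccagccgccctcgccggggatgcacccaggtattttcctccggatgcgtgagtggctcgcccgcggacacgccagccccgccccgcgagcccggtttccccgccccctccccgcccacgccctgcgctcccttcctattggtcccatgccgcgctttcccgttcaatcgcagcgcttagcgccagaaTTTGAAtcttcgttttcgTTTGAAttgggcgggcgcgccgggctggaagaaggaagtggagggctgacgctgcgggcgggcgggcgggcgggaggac

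In these windows the CHR letters began 3 bases before the listed start in NDC80, on the opposite strand, and 29 bases before it in CCNB2. MKI67 held them 47 and 29 bases before its start. CCNB1 held only the variant, 30 bases before its start, and CENPE held the variant 3 times. Of the 38 genes, 34 had a promoter in the table used, and TTK, BUB3, FOXM1 and UBE2C had none. The CHR letters stood on either strand in 24 of the 34 windows (70.6%), against 15.4% of the windows of all 27305 genes in the table. Between 100 bases before and 50 bases after the start, they stood in 20 of the 34 (58.8%), against 6.91% of all. The variant stood in 12 of the 34 (35.3%, all genes 12.3%), and 30 held the CHR, its variant or both. CCAAT boxes, searched on both strands, stood in 23 of the 34 (67.6%, all genes 35.7%), and 16 windows (47.1%) held both a CHR and a CCAAT box, against 6.08% of all.

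Of the 5 members with a window that rose in P3 and P4 hESCs (values follow), 2 held the CHR letters TTTGAA. Of the 29 members that did not pass the test, 22 did. BUB1, which rose, held neither TTTGAA nor TTTAAA in its window but had CCAAT boxes 79 and 54 bases before its start. No other form of the CHR was searched, and the BUB1 window also holds the letters TTCGAA. A match is a string of letters and was not shown to be a bound site. For comparison, none of the 11 genes with a window on a list of DNA replication genes held the CHR letters, and 7 of the 11 held a CCAAT box.

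Libraries held between 26874899 and 38095600 expected counts, so that 3 counts correspond to at most 0.112 CPM, and the lowest member value in any sample was 12.2 CPM (CENPA). Mitochondrially encoded genes took 18.5% of the counts in sample P1-2, 18.4% in P3-1 and 17.2% in P4-1, and between 5.89% and 9.84% in the other 5 samples. All 8 pluripotency markers were expressed in every sample, the lowest being NANOG and SALL4 at 33.6 and 33.9 TPM, with POU5F1 at 1095 to 2421 TPM. Of 14 markers of differentiated cells, COL1A1 made up most of the sum (51.3 to 150.5 TPM), while the others stayed under 6 TPM and COL3A1 did not exceed 0.02 TPM. Their summed level was 102 to 157 TPM in P1 and P2 hESCs and 61.8 to 70.6 TPM in P3 and P4 hESCs, and its part in the results was not tested.

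Levels compared between genes in TPM, which is per length, spanned a wide range. PTTG1, which encodes securin, was the highest member with a mean of 301 TPM over the 8 samples, followed by UBE2C, an E2 enzyme of the APC/C, at 202 TPM. KIF18A, a kinesin that dampens chromosome movements, was the lowest with 7.70 TPM. All members but KIF18A were at 5 TPM or more in every sample.

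P3 and P4 hESCs had more of most of these transcripts than P1 and P2 hESCs. Of the 38 genes, 37 had a positive log2 fold change, against 9847 of all 19499 tested genes. The median was 0.44 for the members and 0.01 for all tested genes. Counts were tested by the quasi-likelihood method of edgeR, 4 samples against 4, with p-values adjusted over all tested genes by Benjamini and Hochberg. At an adjusted p-value under 0.05, 7 genes rose (18.4%) and none fell, where 3.5% of all tested genes were higher and 4.04% lower. The 7 were CENPE, NDC80, TTK, CCNB1, BUB1, BUB3 and CCNB2, that is the kinetochore proteins CENPE and NDC80, 3 checkpoint genes and the cyclins B1 and B2. None met the study's rule for differentially expressed genes, a log2 fold change beyond 1 and an adjusted p-value under 0.01, which 2.2% of all tested genes met. In DESeq2 none met it either, and 24 of the 38 (63.2%) had an unadjusted p-value under 0.05 in edgeR, against 25.5% of all tested genes. With 1 sample left out, 1 gene (NDC80) passed without P1-1, 2 (NDC80 and CENPE) without P1-2, P2-1, P2-2, P3-1 or P3-2, 3 without P4-1 and 13 without P4-2. For these and the other alternative fits below, the share of all tested genes that passed is not given. Whether such counts are particular to the members therefore cannot be read from them.

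**Figure D1:**
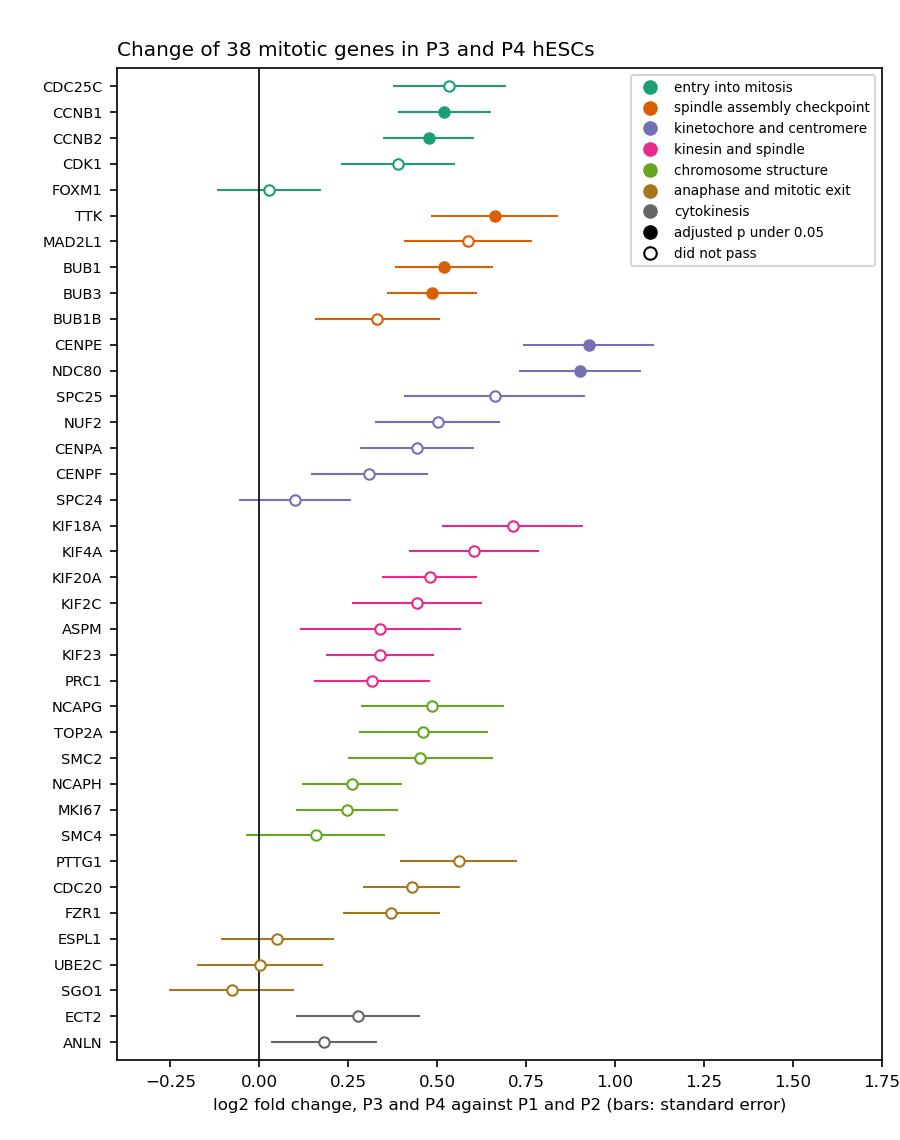
Log2 fold change of each of the 38 genes in P3 and P4 hESCs (4 samples) against P1 and P2 hESCs (4 samples), grouped by role, with bars of 1 standard error and filled points for an adjusted p under 0.05. All but SGO1 (-0.08) lie at or right of 0, and CENPE (0.93) and NDC80 (0.90) lie farthest right.

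In 16 of the 38 genes (42.1%) every P3 and P4 sample lay above every P1 and P2 sample in CPM, a pattern that 8.38% of all tested genes had, and no member had the reverse (all genes 9.19%). The rises depended on the scale and on the test used with it. CPM values here carry TMM factors (edgeR's scaling between libraries), and TPM values do not. TPM values were also tested with limma in place of edgeR, so the parts of scale and test in the lost calls cannot be told apart. In log2(TPM + 1) with limma no member passed, the median of the members was 0.25 and that of all genes -0.09. On that scale SPC24, ESPL1, ANLN, FOXM1 and UBE2C turned negative, and the samples of 4 members (all genes 3.3%) stood apart.

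**Figure D2:**
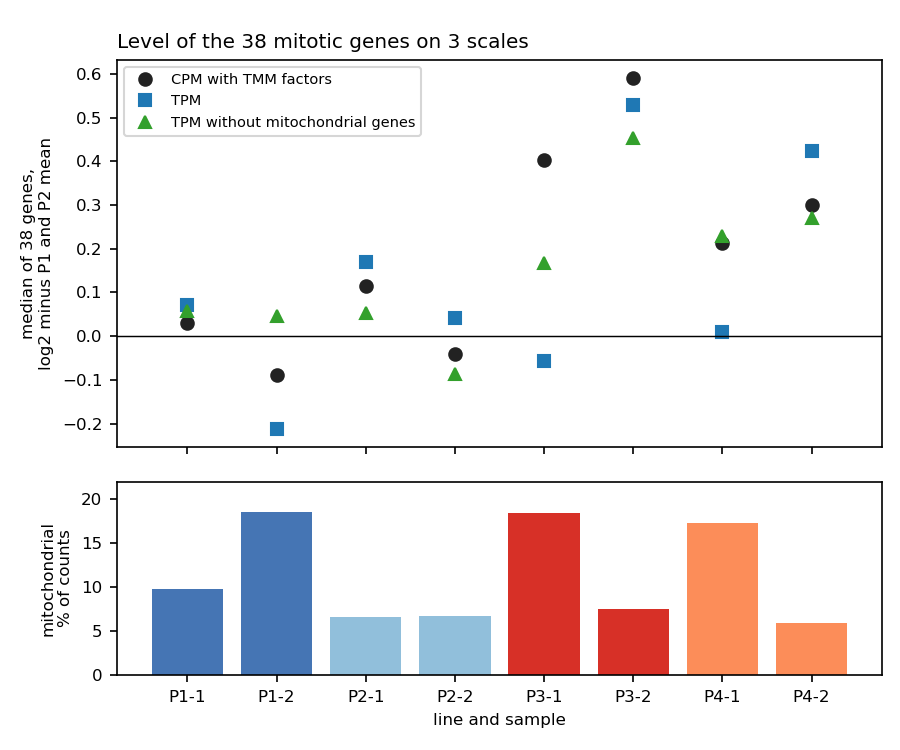
Upper panel, the median over the 38 genes of the log2 level minus the mean of the 4 P1 and P2 samples, in each sample and on 3 scales; lower panel, the percentage of counts from mitochondrial genes. In sample P3-1, where mitochondrial genes took 18.4% of counts, the median was 0.40 in CPM, -0.06 in TPM and 0.17 in TPM without mitochondrial genes.

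With TPM rescaled without mitochondrial genes, NDC80, CENPE and CCNB2 passed and 13 members stood apart (all genes 5.79%). Without the 3 libraries of high mitochondrial share, only NDC80 passed, and the median of the members was 0.50. Whether the mitochondrial share itself bears on these genes was not tested.

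Among the kinetochore and centromere genes, CENPE and NDC80 had the 2 largest fold changes of the list. CENPE, a kinesin that carries chromosomes to the metaphase plate, was measured at 52.8 and 48.6 CPM in P1 hESCs, 68.4 and 44.6 in P2, 90.3 and 133 in P3 and 83.4 and 101 in P4. The 2 groups of lines did not overlap, and the log2 fold change was 0.93 (standard error 0.18, edgeR adjusted p = 0.0131). NDC80, the subunit that gives its name to the complex that grips microtubules, stood at 34.8 and 27.9 CPM in P1 hESCs, 41.0 and 31.8 in P2, 66.7 and 74.7 in P3 and 47.8 and 64.1 in P4. Its samples did not overlap either, P3 hESCs were highest, and the log2 fold change was 0.90 (standard error 0.17, edgeR adjusted p = 0.0101). NDC80 passed in every fit on counts that was run, including each that left out 1 library, but not in log2(TPM + 1) (0.69, limma adjusted p = 0.119).

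The other 3 subunits of the NDC80 complex did not pass. SPC25 had a log2 fold change of 0.66 and NUF2 of 0.50, while SPC24 had 0.10. SPC25 was at 31.9 and 33.7 CPM in P3 hESCs but at 21.8 and 14.1 in P4, and the lower P4 sample lay among the P1 and P2 samples (13.7 to 18.3). CENPA, the histone H3 variant that marks centromeres, was read at 12.2 and 12.8 CPM in P1 hESCs, 14.2 and 13.1 in P2, 17.0 and 19.6 in P3 and 14.2 and 20.2 in P4. The lowest P4 sample lay just under the highest P2 sample, and the fold change of 0.44 had an adjusted p of 0.114 in edgeR. CENPF, a large kinetochore protein, had 0.31 and ranged from 201 to 369 CPM.

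In the spindle assembly checkpoint, 3 of 5 genes rose and the median of the 5 was 0.52. TTK (MPS1), the kinase at the top of the checkpoint, was found at 66.3 and 64.0 CPM in P1 hESCs, 69.8 and 42.1 in P2, 103 and 111 in P3 and 87.3 and 81.7 in P4. Every P3 and P4 sample exceeded every P1 and P2 sample, with a log2 fold change of 0.66 (standard error 0.18, edgeR adjusted p = 0.0453). BUB1, a kinase that recruits checkpoint proteins to kinetochores, was counted at 183 and 177 CPM in P1 hESCs, 192 and 173 in P2, 276 and 301 in P3 and 216 and 245 in P4. The 4 early samples of BUB1 lay within 173 to 192 CPM, P3 was highest, and the fold change was 0.52 (standard error 0.14, edgeR adjusted p = 0.0431). BUB3, the partner that docks BUB1 and BUBR1, gave 168 and 149.9 CPM in P1 hESCs, 179 and 151 in P2, 231 and 244 in P3 and 226 and 206 in P4. The groups did not overlap, with a fold change of 0.49 (standard error 0.13, edgeR adjusted p = 0.0398).

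MAD2L1 encodes MAD2, which binds and restrains CDC20, and had 117 and 109 CPM in P1 hESCs, 122 and 81.2 in P2, 192 and 183 in P3 and 146 and 125 in P4. Every late sample was above every early one, by a narrow margin between P4-2 and P2-1, and the fold change of 0.59 did not pass (edgeR adjusted p = 0.0696). BUB1B (BUBR1), a subunit of the mitotic checkpoint complex, had 158 and 128 CPM in P1 hESCs, 164 and 159.7 in P2, 151 and 222 in P3 and 156 and 238 in P4. In both late lines the samples of BUB1B were far apart and the lower of them lay among the early samples, and the fold change was 0.33 (standard error 0.18, edgeR adjusted p = 0.263).

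**Figure D3:**
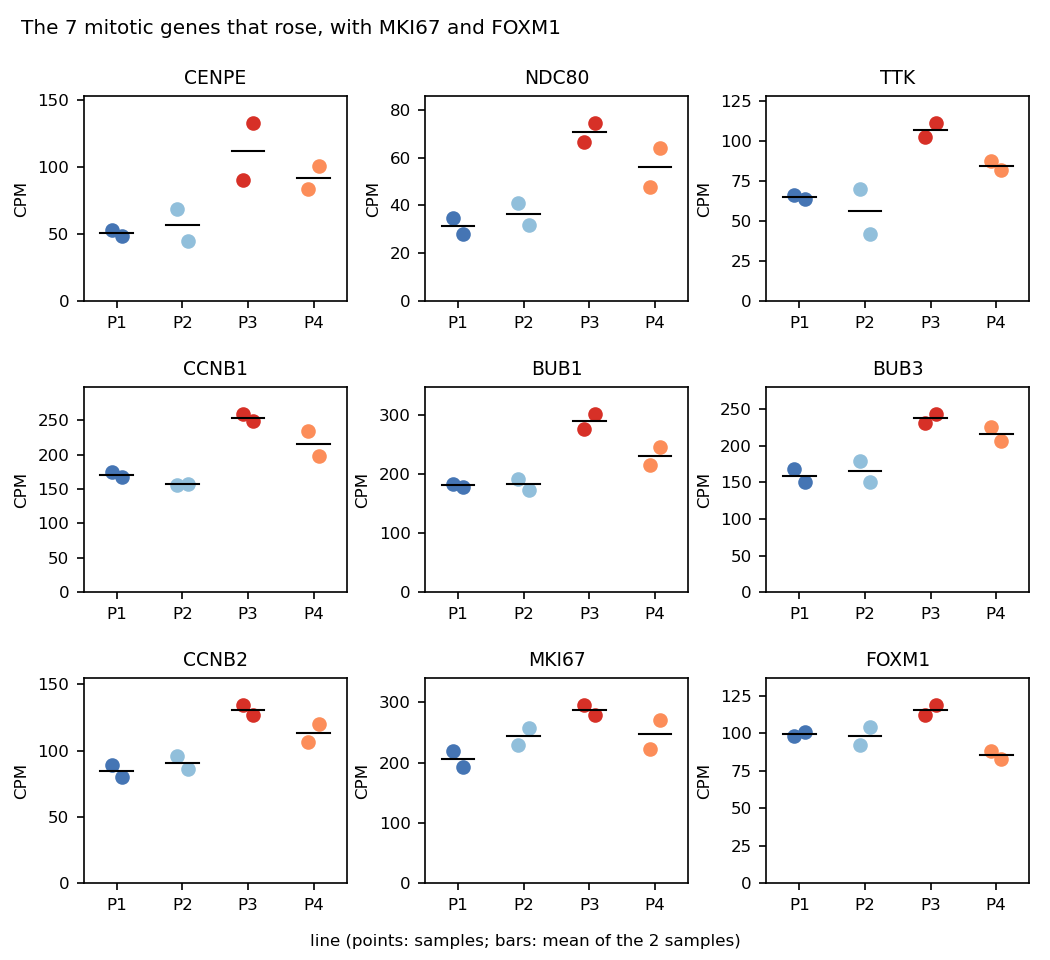
CPM with TMM factors in every sample (points) and the mean of the 2 samples (bars) for the 7 genes that rose and for MKI67 and FOXM1, by line, each axis starting at 0. In the 7 risers all P3 and P4 points lie above all P1 and P2 points, while those of MKI67 and FOXM1 overlap.

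Of the 5 genes of mitotic entry, the 2 cyclins rose. CCNB1 (cyclin B1) was measured at 174 and 168 CPM in P1 hESCs, 156 and 158 in P2, 259 and 248 in P3 and 234 and 198 in P4. No sample of P1 or P2 reached those of P3 or P4, and the log2 fold change was 0.52 (standard error 0.13, edgeR adjusted p = 0.0356). CCNB2 (cyclin B2) was lower, at 89.4 and 79.9 CPM in P1 hESCs, 95.7 and 86.0 in P2, 134 and 127 in P3 and 107 and 120.4 in P4. It separated the groups as well, with 0.48 (standard error 0.13, edgeR adjusted p = 0.045).

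CDK1, the kinase both cyclins activate, had 102 and 110.5 CPM in P1 hESCs, 109 and 83.1 in P2, 116 and 159 in P3 and 109 and 146 in P4. Samples P3-1 and P4-1 lay near the early samples, and the change of 0.39 did not pass (edgeR adjusted p = 0.158). CDC25C, the phosphatase that activates CDK1, had a fold change of 0.53 with no overlap between groups, and did not pass either (edgeR adjusted p = 0.0643). FOXM1, a transcription factor of G2 and mitotic genes, had 98.1 and 101 CPM in P1 hESCs, 92.1 and 104 in P2, 113 and 119 in P3 and 88.3 and 83.1 in P4. P3 hESCs were the highest and P4 the lowest line for FOXM1, and the late against early change was 0.03 (standard error 0.15, edgeR adjusted p = 0.927), which turned negative in TPM.

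Kinesins and spindle genes had a median of 0.44, and none of the 7 passed. KIF18A had 15.8 and 16.7 CPM in P1 hESCs, 17.8 and 12.7 in P2, 28.4 and 33.4 in P3 and 22.6 and 18.9 in P4. All late samples exceeded all early ones, and the change of 0.71 missed the threshold (edgeR adjusted p = 0.0507). KIF4A, a chromosome-bound kinesin encoded on chromosome X (70290090 to 70420832, plus strand, GRCh38), had 51.3 and 44.6 CPM in P1 hESCs, 52.7 and 52.4 in P2, 80.2 and 104 in P3 and 58.0 and 63.0 in P4. Its groups did not overlap, P3 was the highest line, and the change was 0.60 (standard error 0.18, edgeR adjusted p = 0.0675). KIF20A (0.48) and KIF2C (0.44) separated the groups too, while KIF23 (0.34), ASPM (0.34) and PRC1 (0.32) did not.

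Anaphase and exit genes had a median of 0.21, and none of the 6 passed. CDC20, the activator of the APC/C in mitosis, had 128 and 123 CPM in P1 hESCs, 113 and 139.9 in P2, 198 and 165 in P3 and 169.5 and 146 in P4. Late samples all exceeded early ones, by 146 against 139.9 CPM at the closest, and the change was 0.43 (standard error 0.14, edgeR adjusted p = 0.0804). FZR1 (CDH1), which takes over from CDC20 at mitotic exit, had 29.8 and 36.3 CPM in P1 hESCs, 28.1 and 31.5 in P2, 37.6 and 37.5 in P3 and 43.8 and 43.7 in P4. For FZR1 P4 was the highest line, its samples stood apart from those of P1 and P2, and the change was 0.37 (standard error 0.14, edgeR adjusted p = 0.117).

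PTTG1 (securin), the inhibitor of separase, gave 105 and 95.2 CPM in P1 hESCs, 122 and 129.5 in P2, 186 and 146 in P3 and 136 and 198 in P4. It separated late from early samples with a change of 0.56 (standard error 0.16, edgeR adjusted p = 0.0611). ESPL1 (separase) had 56.4 and 77.6 CPM in P1 hESCs, 53.4 and 57.9 in P2, 64.8 and 74.9 in P3 and 60.04 and 54.1 in P4. Its highest sample was in P1 hESCs, the groups overlapped, and the change of 0.05 turned negative in TPM. UBE2C, the only member on chromosome 20 (45812576 to 45816957, plus strand, GRCh38) and so on the chromosome that carries the gain at 20q11.21, had 109.8 and 84.6 CPM in P1 hESCs, 99.6 and 135 in P2, 86.4 and 96.0 in P3 and 123 and 124 in P4. P3 hESCs were the lowest line and P4 the highest for UBE2C, and the change was 0.00 (standard error 0.18, edgeR adjusted p = 0.996), negative in TPM. SGO1 (shugoshin), which protects centromeric cohesion, was the only member with a negative change (-0.08, edgeR adjusted p = 0.817), and it turned positive without sample P2-1 (0.02).

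Genes of chromosome structure had changes between 0.16 (SMC4) and 0.49 (NCAPG), and none of the 6 passed or separated the groups. TOP2A, the topoisomerase that untangles sister chromatids, had 397 and 339 CPM in P1 hESCs, 464 and 398 in P2, 526 and 631 in P3 and 385 and 659.9 in P4. Sample P4-1 lay among the early samples, and the change was 0.46 (standard error 0.18, edgeR adjusted p = 0.141). MKI67 (Ki-67), the proliferation marker that coats mitotic chromosomes, had 220.1 and 193 CPM in P1 hESCs, 229.9 and 258 in P2, 296 and 279 in P3 and 223 and 271 in P4. The lowest late sample of MKI67 was below the highest early one, and the change was 0.25 (standard error 0.14, edgeR adjusted p = 0.307). The condensin genes NCAPH (0.26) and SMC2 (0.45) and the cytokinesis genes ECT2 (0.28) and ANLN (0.18) did not pass, and ANLN turned negative in TPM.

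**Figure D4:**
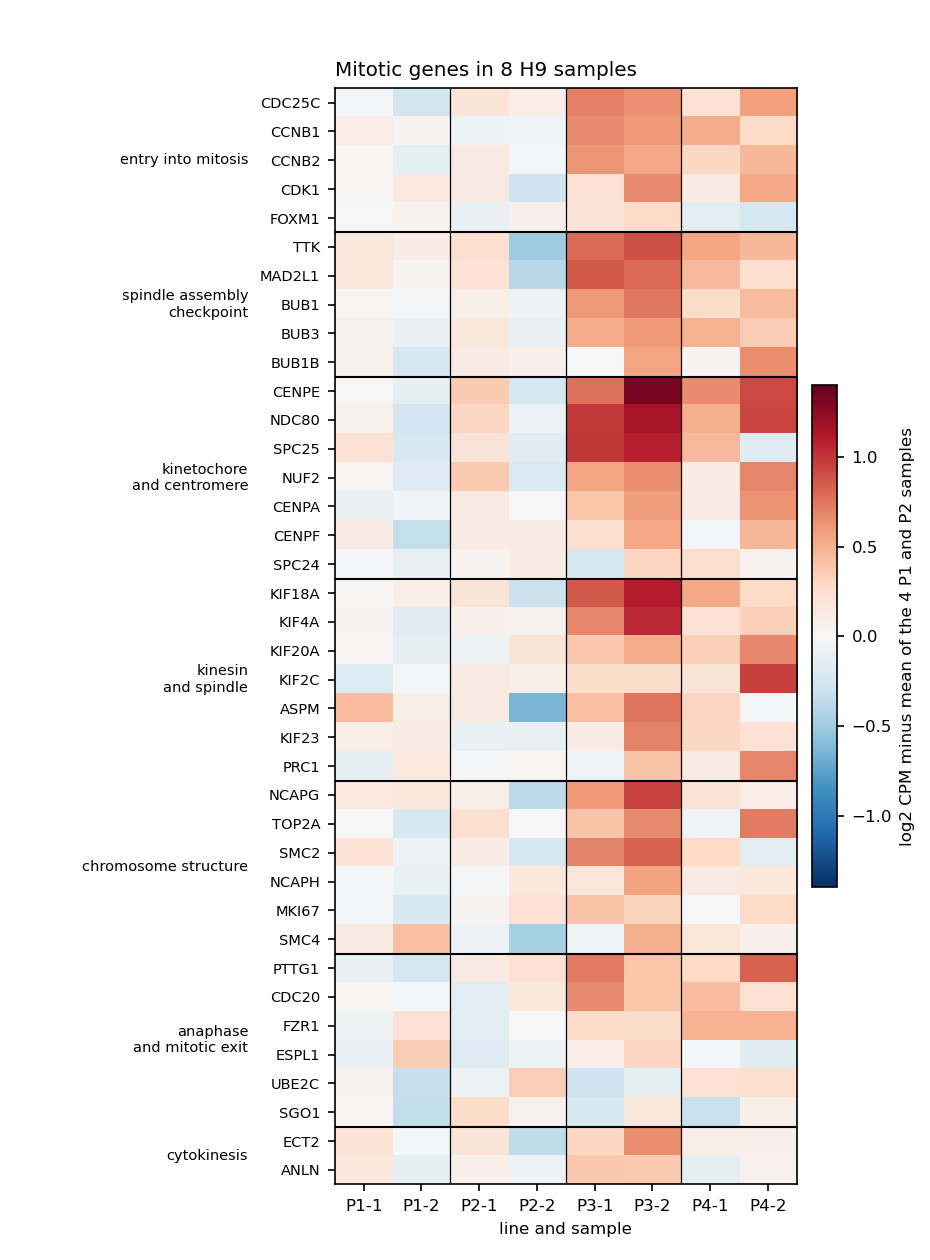
Log2 CPM of the 38 genes in the 8 samples relative to the mean of the 4 P1 and P2 samples, with genes grouped by role (black lines) and red for higher levels. The 2 columns of P3 hESCs are the reddest, with sample medians of 0.40 and 0.59, and those of P4 hESCs have 0.21 and 0.30.

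Line by line, most members had their highest mean in P3 hESCs. The highest line mean in CPM was that of P3 for 28 of the 38 genes, P4 for 8, P1 for 1 (SMC4) and P2 for 1 (SGO1), and for 24 the mean of P4 lay between those of P1 and P3. How many of all tested genes had these orders was not counted. The median over the members of the line means was 83.5 CPM in P1, 81.3 in P2, 111 in P3 and 96.5 in P4. These comparisons used a model with 4 groups of 2 samples, and those that share the P1, P2 or P3 samples are not independent of each other.

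No difference between P2 and P1 hESCs was detected for these genes. No member passed in P2 against P1 hESCs, 1 (SMC4, -0.54) had an unadjusted p-value under 0.05 in edgeR, and none passed in DESeq2, while 0.00513% of all tested genes were higher and 9.14% had an unadjusted p-value under 0.05. The log2 fold changes were positive for 22 members and negative for 16 (all tested genes 9474 and 10005), with a member median of 0.03. In log2(TPM + 1) the member median was 0.18 and the all-gene median 0.13, and with TPM rescaled without mitochondrial genes 15 members were positive and 23 negative.

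In P3 against P1 hESCs 10 of the 38 rose (26.3%) and none fell, where 4.49% of all tested genes were higher and 8% lower. NDC80 led with 1.17 (standard error 0.22, edgeR adjusted p = 0.00646) and was the only member to meet the study's rule, which 3.93% of all tested genes met. CENPE (1.14), SPC25 (1.03), KIF4A (0.94), KIF18A (0.92), CDC25C (0.81), PTTG1 (0.73), MAD2L1 (0.73), BUB1 (0.68) and CCNB2 (0.63) were the others. The count fell to 0 without sample P1-2 and to 3 without P1-1 or without P3-2, and with TPM rescaled without mitochondrial genes only NDC80 passed. NDC80 no longer met the study's rule without P1-1, P1-2, P3-1 or P3-2.

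In P3 against P2 hESCs 11 rose (28.9%, all genes 5.08%) and none fell (all genes 6.67%). The 11 were SPC25 (1.03), KIF18A (1.02), CENPE (0.98), NDC80 (0.96), TTK (0.93), NCAPG (0.91), MAD2L1 (0.89), SMC2 (0.82), KIF4A (0.81), CCNB1 (0.69) and BUB1 (0.66). NCAPG and SMC2 are condensin subunits, and in P3 against P1 hESCs they had 0.64 (edgeR adjusted p = 0.063) and 0.69 (edgeR adjusted p = 0.0538). No member met the study's rule in edgeR (all genes 3.42%), and 2 did in DESeq2. The count was 0 without sample P2-2 and 1 (MAD2L1) without P3-2, and in TPM no member passed, with an all-gene median of -0.21 and a member median of 0.18.

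In P4 against P1 hESCs NDC80 alone rose, by 0.84 (standard error 0.22, edgeR adjusted p = 0.0471). That was 2.63% of the members against 2.54% of all tested genes, and none fell (all genes 3.4%). None met the study's rule in edgeR or DESeq2 (all genes 2.11%), and 8 had an unadjusted p-value under 0.05 in edgeR (all genes 21.5%). CENPE had 0.86 (standard error 0.25, edgeR adjusted p = 0.0629) and PTTG1 0.74, and neither passed. Of the 38 fold changes 32 were positive (9604 of all 19499 tested genes) and the median was 0.34, with an all-gene median of -0.01. FOXM1 (-0.22) and ESPL1 (-0.23) were the lowest. With only the P1 and P4 samples in the fit CENPE passed and NDC80 did not. NDC80 did not pass without P1-1, P1-2, P2-1, P2-2 or P4-2, and 3 members (KIF2C, PTTG1 and NDC80) passed without P4-1.

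**Figure D5:**
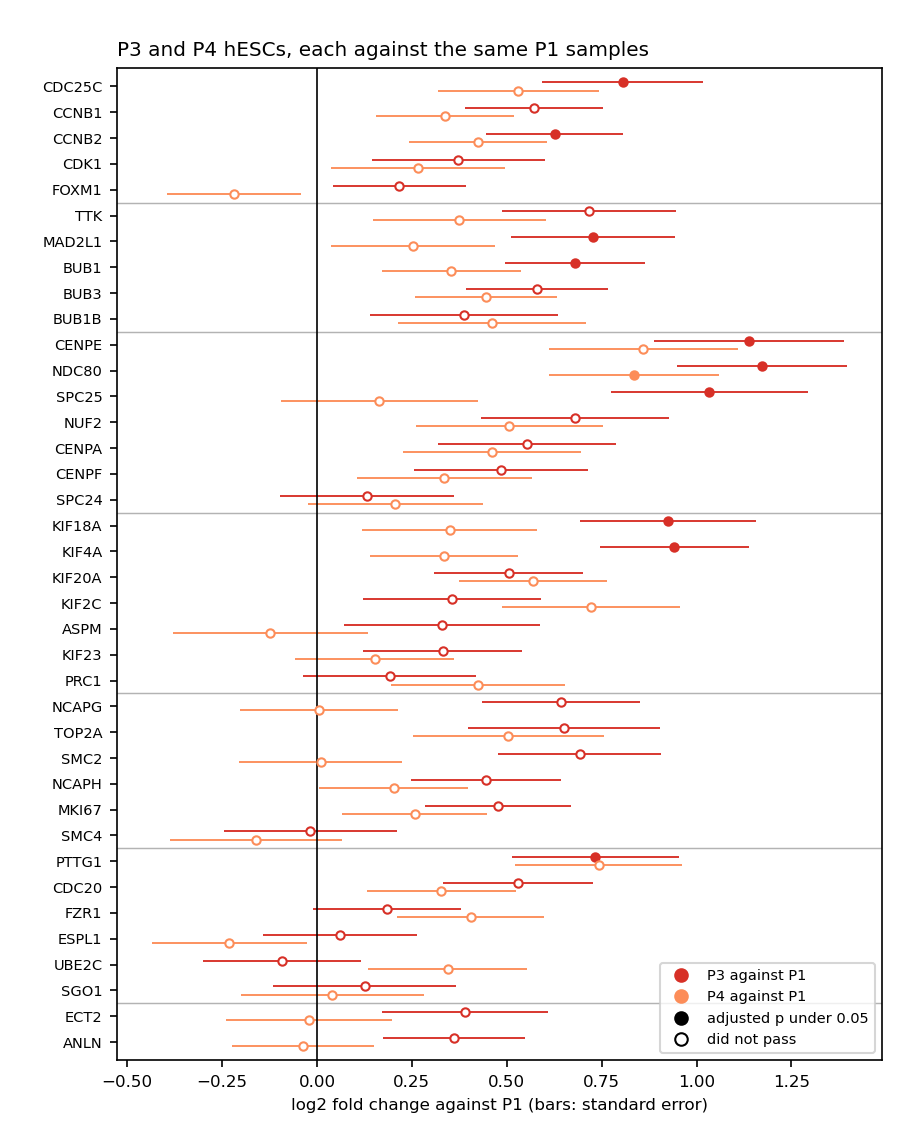
Log2 fold change of each gene against the same 2 P1 samples, in P3 hESCs (red) and P4 hESCs (orange), with bars of 1 standard error and filled points for an adjusted p under 0.05. SPC25, SMC2 and NCAPG lie near 0 in P4 (0.16, 0.01 and 0.01) and at 1.03, 0.69 and 0.64 in P3.

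Set directly against P3, P4 hESCs had lower values for 30 of the 38 genes, against 9629 of all 19499 tested genes. The median log2 fold change was -0.21 for the members and 0.01 for all tested genes. No member passed in edgeR, 7 had an unadjusted p-value under 0.05 (all genes 19.2%), and 1 (SPC25) passed in DESeq2, while 1.12% of all tested genes were lower and 2.19% higher. SPC25 had -0.87 (standard error 0.26, edgeR adjusted p = 0.0921) and SMC2 -0.68, and at the other end were UBE2C (0.44) and KIF2C (0.37). KIF2C (MCAK), which depolymerizes microtubules, owed its P4 mean to 1 sample, at 179 CPM in P4-2 and 105 in P4-1. In log2(TPM + 1) the member median was -0.02 and the all-gene median 0.10, and 23 members were negative.

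The same test was read for other lists of mitotic genes and for the further lists below. In it 3.5% of all tested genes were higher and 4.04% lower. An unadjusted p-value under 0.05 was held by 25.5% of all tested genes. Of 34 further kinetochore genes none passed in P3 and P4 against P1 and P2 hESCs (5 at an unadjusted p under 0.05, median 0.18), with ZW10 at 0.58 and HJURP at 0.49 having the lowest p. In single lines ZW10 (0.75) and CENPW (0.83) rose in P3 against P1 hESCs (all genes 4.49%) and none fell. ZW10 also rose in P3 against P2 hESCs (0.88, all genes 5.08%). Of 16 APC/C subunits and regulators 2 rose, CDC23 (0.56, edgeR adjusted p = 0.0339) and the inhibitor FBXO5 (EMI1, 0.55). CDC23 and KIF20A have exons that overlap on opposite strands. Of 15 further cohesin and condensin genes none passed (4 at an unadjusted p under 0.05), the lowest p belonging to NCAPD3 (0.48) and NCAPG2 (-0.46). In P3 against P2 hESCs STAG1 rose (1.22, edgeR adjusted p = 0.00866) and met the study's rule (all genes 3.42%). In P4 against P3 hESCs STAG1 fell (-1.09, edgeR adjusted p = 0.03).

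Among 17 other mitotic kinases and their partners 3 rose. TPX2, the spindle assembly factor that activates Aurora A and lies within the band 20q11.21 (chromosome 20, 31739271 to 31801805, plus strand, GRCh38), was at 142 and 99.7 CPM in P1 hESCs, 142 and 166 in P2, 608 and 629.9 in P3 and 435 and 590.0 in P4. All late samples lay far above the early ones, with 2.04 (standard error 0.19, edgeR adjusted p = 1.27e-04), and it was the only gene of these lists to meet the study's rule in this comparison. NEK2 (0.71) and CDCA8 (0.49), the chromosomal passenger borealin, also rose. AURKA, the Aurora A kinase, had 75.9 and 67.0 CPM in P1 hESCs, 72.9 and 77.6 in P2, 94.4 and 96.7 in P3 and 81.0 and 95.4 in P4. It was higher in every late than in every early sample, but the change was 0.32 (standard error 0.12, edgeR adjusted p = 0.127). Of 16 other kinesin and cytokinesis genes, CEP55 (0.69), CKAP2 (0.63) and DLGAP5 (0.60) rose.

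None of 14 DNA replication genes passed in P3 and P4 against P1 and P2 hESCs (median 0.07, 4 at an unadjusted p under 0.05, all genes 25.5%). CCNE1 had 0.44 and CCNE2 -0.79. In single lines MCM6 rose in P3 against P1 hESCs (0.72, edgeR adjusted p = 0.0236) and against P2 hESCs (0.64, edgeR adjusted p = 0.0379). None of 10 genes of the DREAM and MuvB complexes passed (median 0.12, 1 at an unadjusted p under 0.05), where LIN37 had 0.70 and LIN52 0.41. None of the 8 pluripotency markers (3 at an unadjusted p under 0.05) nor of the 10 tested markers of differentiated cells (5 at that level) passed in this comparison. L1TD1 (0.43) and SALL4 (-0.33) had the lowest p of the first list, and EOMES (-2.31) and TBXT (-1.69) of the second. In the second list 7 changes were negative and 3 positive, the highest being FOXA2 (2.15). FOXA2 rose in P3 against P1 hESCs (2.76, edgeR adjusted p = 0.00244). EOMES (-3.25, edgeR adjusted p = 0.00313) and ACTA2 (-2.30, edgeR adjusted p = 0.0179) fell there. In P4 against P1 hESCs FOXA2 had -1.49 and did not pass (edgeR adjusted p = 0.114).

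Of the 6 tested genes named as cyclin-dependent kinase inhibitors, none passed in P3 and P4 against P1 and P2 hESCs (2 at an unadjusted p under 0.05, all genes 25.5%). CDKN3 had 0.66 and CDKN2D 0.67. CDKN1A (p21), an inhibitor induced by p53, is named after its values were seen, and was at 11.17 and 15.8 CPM in P1 hESCs, 18.2 and 21.0 in P2, 8.44 and 3.85 in P3 and 57.0 and 86.0 in P4. It fell in P3 against P1 hESCs, with -1.14 (standard error 0.34, edgeR adjusted p = 0.0483), and rose in P4 against P1 hESCs, with 2.41 (standard error 0.34, edgeR adjusted p = 0.00146). The fall in P3 hESCs did not pass without P1-1, P1-2, P2-1, P2-2 or P3-2, nor in log2(TPM + 1). Between P4 and P3 hESCs the change of CDKN1A was 3.54 (standard error 0.36, edgeR adjusted p = 2.41e-04). Other genes of this list also changed in single lines. CDKN2D (1.16, edgeR adjusted p = 0.0341) and CDKN3 (1.01, edgeR adjusted p = 0.023) rose in P3 against P1 hESCs. CDKN1C rose in P4 against P1 hESCs (edgeR adjusted p = 0.0261).

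Reads of 18 members could be shared with an overlapping gene, of which BUB1B (BUB1B-PAK6), CENPA (SLC35F6) and PRC1 share exons on the same strand, and their counts are uncertain. Among near-identical copies, CDC20P1 had 182 to 323 counts and UBE2CP5 25.5 to 78.5, and reads of CDC20 and UBE2C could have been split with them, while KIF4B, PTTG2 and PTTG3P had at most 6.04 counts. Of the listed copies CDC20P1 (0.52, edgeR adjusted p = 0.117) and UBE2CP5 (-0.31, edgeR adjusted p = 0.605) passed the filter on low counts, as did the antisense gene KIF23-AS1 (-0.33, edgeR adjusted p = 0.773), and none of these passed the test in P3 and P4 against P1 and P2 hESCs.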

How the data were processed

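Libraries were made from total RNA of 8 H9 samples with a strand-specific mRNA kit. Per the submitters' processing notes the tools were FastQC, Trim Galore, STAR 2.7.3a and RSEM 1.3.3 with GRCh38 (hg38), whose annotation release and strand setting are not given in the sources used here. The authors deposited an expected count per gene and sample, estimated by RSEM and not normalized. The authors also deposited TPM values, which divide by effective gene length and sum to the same total in every sample.

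Rounded expected counts entered edgeR 4.0.16 under R 4.3.3 (TMM, filterByExpr by the 4 lines, quasi-likelihood test, Benjamini-Hochberg adjustment over 19499 genes). A model of 2 groups set P3 and P4 against P1 and P2 hESCs, and a model of 4 groups served for single lines. Each standard error given for edgeR is the absolute log2 fold change divided by the square root of the quasi-likelihood F statistic. It was thus derived from the test and not estimated separately, also for the standard error bars of the figures. "Rose" and "fell" mean an adjusted p-value under 0.05, and the study's rule is an absolute log2 fold change above 1 with an adjusted p-value under 0.01. Alternatives used DESeq2 1.42.0 (named in the study), its size factors, no filter, the replicate block, limma 3.58.1 on log2(TPM + 1) and log2(TPM + 0.1), no mitochondrial genes, only the lines compared, and each sample left out. Python 3.11.15 with pandas 2.3.3 and matplotlib 3.10.9 made the summaries and figures.

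The members and all lists (kinetochore, APC/C, cohesin and condensin, kinases, kinesins and cytokinesis, DREAM and MuvB, replication, kinase inhibitors, pluripotency and differentiation markers, copies and antisense genes) were chosen with earlier results of these data known, so no list was tested as a set. Values in every sample are given for 19 members fixed by name and any other that rose in P3 and P4 hESCs or met the study's rule. For the other lists TPX2, AURKA and genes meeting the study's rule in P3 and P4 hESCs were named, otherwise the 2 with the lowest p, and further genes that rose were named after their values were seen. The highest and lowest member by TPM and the extremes of 2 comparisons were also named. Symbols came from a table that matched 56558 identifiers, positions from GENCODE release 29 on GRCh38, and promoters from RefSeq on GRCh38.p14. Depth limits only counting error here, and PCR reads without molecular identifiers are not independent molecules.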

Additional observations from a re-analysis of the deposited data

Results flagged for a closer look

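In 7 of 108 groups of 4 samples (early or late) the extreme sample stood far from the other 3, measured as its gap to the nearest sample over the whole range in log2 CPM, and chance alone would give about 5.4. Sample P1-2 was low among the early samples for CENPF (0.962, 201 against 271 to 274 CPM), BUB1B (0.857, 128 against 158 to 164 CPM) and KIF4A (0.834, 44.6 against 51.3 to 52.7 CPM). NCAPG was low in P2-2 (0.878, 39.7 against 54.2 to 56.6 CPM). Among the late samples KIF2C was high in P4-2 (0.904, 179 against 105 to 110.4 CPM), NCAPH was high in P3-2 (0.892, 61.7 against 45.5 to 47.1 CPM) and AURKA was low in P4-1 (0.863, 81.0 against 94.4 to 96.7 CPM).

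The change of CDKN1A against P1 hESCs differed between P4 and P3 hESCs by 3.54 on the log2 scale (edgeR adjusted p = 2.41e-04), with a fall in P3 and a rise in P4.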

How the results depend on the processing

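The number of members that rose in P3 and P4 hESCs (7) was 14 in the 4-group model, 14 in DESeq2, 3 in TPM rescaled without mitochondrial genes, 1 without the 3 libraries of highest mitochondrial share, and 0 in log2(TPM + 1) and log2(TPM + 0.1). With 1 sample left out it ranged from 1 (without P1-1) to 13 (without P4-2) and was 3 without P4-1 and 2 in each of the others, and fewer samples were then compared. The number meeting the study's rule (0) was 0 to 1 (1 without P4-1). The member median (0.44) was 0.25 in both TPM scales and 0.30 without mitochondrial genes, and 0.39 to 0.50 with 1 sample left out. For the counts here and below, the share of all tested genes in each alternative fit is not given. Whether the members differ from all genes in those fits cannot be read from them. In the 4-group model, unlike the model of 2 groups, differences between the lines of a group do not count as error.

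The count that rose in P3 against P1 hESCs (10) was 16 in DESeq2, 6 with only those lines, 1 in rescaled TPM and 0 in both other TPM scales, and 0 to 11 with 1 sample left out (0 without P1-2, 3 without P1-1 or P3-2, 4 without P3-1, 5 without P2-1 or P2-2). It was 15 without the filter. The number meeting the study's rule (1) was 3 in DESeq2 and without the filter, 0 in the 3 TPM scales, and 0 to 1 with 1 sample left out (0 without P1-1, P1-2, P3-1 or P3-2). In P4 against P1 hESCs (1 rose) it was 4 in DESeq2 and without the filter, 0 in the 3 TPM scales, and 0 to 3 with 1 sample left out (2 without P3-1 or P3-2, 3 without P4-1), and with only those lines 1 (CENPE in place of NDC80). In P3 against P2 hESCs (11 rose) it was 1 in rescaled TPM and 0 in the other TPM scales, and 0 to 11 with 1 sample left out (0 without P2-2, 1 without P3-2, 6 without P2-1 or P3-1), and 2 met the study's rule in DESeq2 and without the filter, where none did before. In P4 against P3 hESCs (0) it was 1 in DESeq2, 1 without the filter, and 0 to 1 with 1 sample left out (1 without P4-1), each time SPC25, lower in P4. The cause was not tested.

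The sample numbers 1 and 2 did not pair the samples, since differences within lines correlated across genes with r from -0.0901 to 0.138. With the replicate block 2 members rose in P3 and P4 hESCs (NDC80 and CENPE), 10 in P3 against P1, 12 in P3 against P2 and 0 in P4 against P1 hESCs.

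For P3 and P4 against P1 and P2 hESCs the sign turned for 6 members, all with changes under 0.2 in size. In log2(TPM + 0.1) and log2(TPM + 1), SPC24 had -0.0071 and -0.0054, ESPL1 -0.10 and -0.0917, ANLN -0.0129 and -0.0123, FOXM1 -0.14 and -0.13, and UBE2C -0.11 and -0.11. In rescaled TPM, ESPL1 had -0.0428, FOXM1 -0.0799 and UBE2C -0.0555. UBE2C had -0.0084 in the 4-group model and -0.0677 without the 3 libraries of highest mitochondrial share. With 1 sample left out, ESPL1 ranged from -0.0376 to 0.1846, FOXM1 from -0.0606 to 0.1129, UBE2C from -0.10 to 0.1307 and SGO1 from -0.1793 to 0.0151.

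Of the alternative values for single genes, 1058 kept direction and side of the threshold, 270 lost the call, 44 gained it and 25 turned sign. Each line has 2 samples, so a library left out leaves 1 sample, assumed to vary like the others. The alternatives that drop mitochondrial genes from TPM or drop 3 libraries were chosen after seeing the data.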
